A study of Mus musculus with 6 samples.

Results

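The mitochondrial carriers of solute carrier family 25 (SLC25) were taken as every gene of the deposited table whose symbol is Slc25a followed by a number alone, which gave 47 of 22880 genes. Their RNA was measured in MC-38 cells, a mouse line of colon adenocarcinoma with a green fluorescent protein (GFP), recovered from tumors in the cecum wall of C57BL/6J mice. The labels give transduction with the vector pLKO.1-puro for the 3 Mock and the 3 HIF-1α-KD libraries alike, and their entry that there was no in vivo passaging does not say how it relates to growth in the tumor. HIF-1α was knocked down in the HIF-1α-KD cells but not in the host, so that the stroma of both kinds of tumor comes from the purchased mice. Its make-up differed, since the paper reports fewer granulocytes and more inflammatory monocytes in HIF-1α-KD tumors. The sort kept GFP-positive cells without CD45 (leukocytes) or CD31 (endothelium), and RNA was sequenced from a single end. The age of the mice, the number of cell clones and whether each library comes from its own tumor are not given in the sources used here, so p-values measure the spread between these libraries, which may be technical.

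SLC25 carriers sit mostly in the inner mitochondrial membrane and exchange metabolites between the cytosol and the matrix. They bring ADP and phosphate to ATP synthase and export ATP, move citrate, malate, oxoglutarate and amino acids, and import cofactors, glutathione and iron. HIF-1 is known to shift hypoxic cells towards glycolysis and away from oxidation of pyruvate in mitochondria. The RNA of the carriers was therefore compared between tumor cells with and without the knock-down in vivo. The paper reports smaller, less hypoxic and better perfused HIF-1α-KD tumors. Dependence on HIF-1α within the cells and effects of these surroundings cannot be told apart.

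Hif1a checks the labels. Its normalized counts (reads of a gene divided by a factor for its library) were 4945 to 6914 in Mock and 697.3 to 3142 in HIF-1α-KD libraries, which is -1.82 on the log2 scale (SE 0.46) and did not pass adjustment (limma adjusted p = 0.219). Positive log2 fold changes mean that HIF-1α-KD exceeds Mock, and values are on the scale of log2 of the normalized count plus 1, which understates changes of low genes. Genes were tested with limma, two-sided, across 12014 genes with enough reads, with Benjamini-Hochberg adjustment. Libraries held between 19845852 and 30809140 reads on genes. An exact permutation test of 3 against 3 libraries cannot go below p = 0.1, so groups were also compared for overlap.

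Of the 47 carriers, 38 had enough reads to be tested. None of the 38 passed an adjusted p under 0.05, either in limma or with edgeR or DESeq2 on recovered reads, whereas limma called 0.383% of all tested genes lower and 0.00832% higher at that threshold. Over all genes these were 46 lower and 1 higher, while edgeR called 47 lower and 0 higher, and DESeq2 187 lower and 96 higher. At an unadjusted p under 0.05 limma gave 3 lower carriers and 0 higher ones, edgeR 5 lower and DESeq2 4 lower. The 3 were Slc25a40, Slc25a24 and Slc25a30, which are 7.89% of the carriers tested, next to 5.69% of all genes that were lower and 7.04% that were higher by the same rule. With a fold of at least 1.5 as well, 1 carrier, Slc25a40, was lower (2.63%) and 0 were higher, next to 3.46% and 4.02% of all genes. By edgeR the lower carriers were 13.2%, next to 6.33% of all genes, and by DESeq2 10.5%, next to 6.18%, so the distance from the background varied with the test and amounts to a few carriers.

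The regions around the transcription starts of these 3 genes are shown because HIF-1 binds DNA at a short core element in promoters. Each sequence covers 250 bases before to 50 bases after a start in the RefSeq annotation of GRCm38.p6, read in the direction of transcription. Capitals mark ACGTG and GCGTG on either strand, so that CACGT and CACGC are the same motifs on the other strand, and the sequence CACGTG holds ACGTG on both.

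Slc25a40, chr5:8422588-8422887, plus strand: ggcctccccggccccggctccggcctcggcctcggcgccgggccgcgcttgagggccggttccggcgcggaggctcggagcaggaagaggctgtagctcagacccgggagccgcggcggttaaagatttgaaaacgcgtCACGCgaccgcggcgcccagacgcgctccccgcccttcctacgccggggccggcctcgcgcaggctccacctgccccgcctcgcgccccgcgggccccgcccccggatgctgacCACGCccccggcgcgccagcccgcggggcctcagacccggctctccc
Slc25a24, chr3:109122899-109123198, plus strand: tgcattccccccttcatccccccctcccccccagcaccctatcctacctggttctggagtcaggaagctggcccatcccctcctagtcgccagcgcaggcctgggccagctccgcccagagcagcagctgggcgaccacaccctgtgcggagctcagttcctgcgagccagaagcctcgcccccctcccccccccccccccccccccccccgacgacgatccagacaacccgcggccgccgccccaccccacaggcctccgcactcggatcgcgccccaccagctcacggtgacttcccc
Slc25a30, chr14:75786988-75787287, minus strand: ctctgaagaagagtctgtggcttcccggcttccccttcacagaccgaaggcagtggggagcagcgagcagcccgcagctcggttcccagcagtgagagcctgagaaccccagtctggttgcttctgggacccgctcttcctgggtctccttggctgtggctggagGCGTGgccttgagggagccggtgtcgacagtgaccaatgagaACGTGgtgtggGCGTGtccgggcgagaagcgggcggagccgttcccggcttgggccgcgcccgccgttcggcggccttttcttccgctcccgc

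The window of Slc25a30 held ACGTG once and GCGTG at 2 places, all before the start, and that of Slc25a40 held GCGTG at 2 places on the opposite strand, 1 on each side of the start. The window of Slc25a24 held neither. Sequences were matched by symbol for 36 of the 47 carriers and for 29 of the 38 tested ones. Either motif was found for 18 of these 29 carriers (62.1%), next to 68.1% of 9068 tested genes with such a sequence. ACGTG, with or without GCGTG, was found for 31.0% of these carriers and for 29.3% of these genes, and GCGTG, with or without ACGTG, for 62.1% and 56.8%. The match is one of letters and was not tied to binding of HIF-1.

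Levels were compared between genes in FPKM, reads scaled to the gene length that the authors give and to the size of the library. The phosphate carrier Slc25a3 stood first with a mean of 524.3 FPKM over 6 libraries, followed by the ADP/ATP carriers Slc25a4 (458.5 FPKM) and Slc25a5 (449.6 FPKM) and by Slc25a39 (331.5 FPKM), a carrier needed for glutathione in mitochondria. The order of the first 3 is not settled, since the mean FPKM in Mock was 536 ± 38.3 (SD, n = 3) for Slc25a3, 496 ± 10.5 (SD, n = 3) for Slc25a4 and 479 ± 58.1 (SD, n = 3) for Slc25a5. Slc25a39 lay below them with 320.0 ± 61.3 FPKM in Mock (SD, n = 3) and 343 ± 26.6 FPKM in HIF-1α-KD cells (SD, n = 3). The oxoglutarate carrier Slc25a11 came next with 129 FPKM. In all, 5 carriers were above 100 FPKM, 21 between 10 and 100, 10 between 1 and 10, and 2 of those tested below 1.

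**Figure D1:**
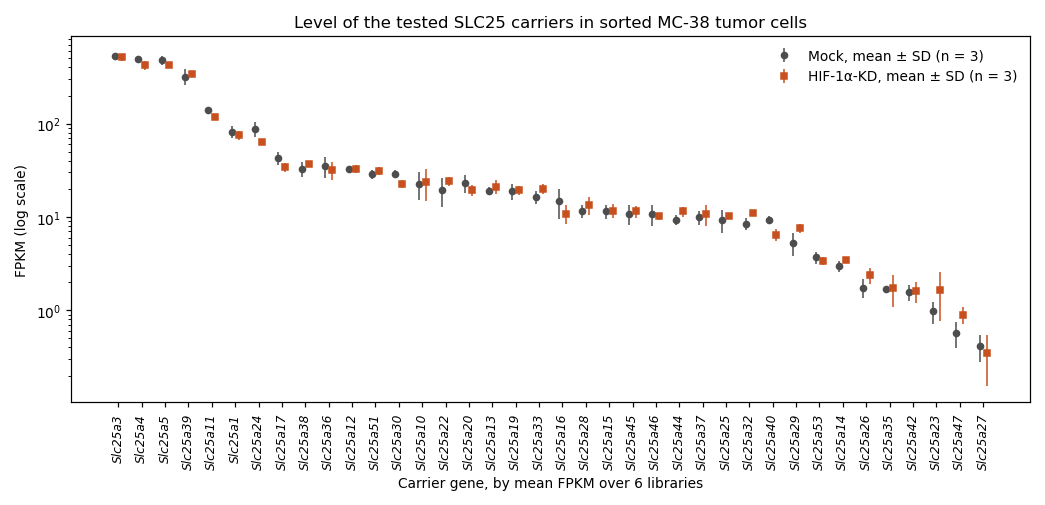
Mean FPKM (log axis) with SD of 3 Mock and 3 HIF-1α-KD libraries for the 38 tested carriers, ordered by mean FPKM over 6 libraries. Levels span from 524 FPKM for Slc25a3 to 0.381 FPKM for Slc25a27, and the points of the groups lie close together for most carriers.

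The first 3 carriers made up between 55.9% and 59.7% of the summed FPKM of the family in each library, and the first 8 between 82.1% and 85.7%. The summed FPKM of all 47 carriers was 2483, 2564 and 2706 in Mock, against 2417, 2451 and 2343 after the knock-down, so that the groups were separate. Without the first 3 carriers the sums were 1024, 1108 and 1090 in Mock, against 1053, 1082 and 1012 after the knock-down, and the groups overlapped. The groups were thus separate in the sum only with the ADP/ATP and phosphate carriers included. As a share of the FPKM of all genes, the family took 0.335% to 0.367% in Mock and 0.339% to 0.356% in HIF-1α-KD libraries, with overlap. As a share of reads, which is not scaled to length, it took 0.349%, 0.351% and 0.363% in Mock, against 0.328%, 0.335% and 0.322% after the knock-down, and here the groups were separate, with the knock-down lower.

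Too few reads for a test were found for 9 of the 47 carriers. Slc25a18, a glutamate carrier, Slc25a21, the oxodicarboxylate carrier, Slc25a31, the ADP/ATP carrier of the germ line, and Slc25a48 had 0 reads in all 6 libraries, which allows up to 3 reads per library, or 2.41 to 3.69 normalized counts. The other 5 untested carriers were Slc25a2, Slc25a34, Slc25a41, Slc25a43 and Slc25a54, with at most 5 reads in a library and at most 13 in all 6. The filter on low counts left them out. The uncoupling protein genes Ucp1 and Ucp3, family members under other symbols, were also at 0 reads in every library.

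As a set, the 38 tested carriers had a median log2 fold change of -0.02, next to 0.02 over all tested genes, and the middle of their distribution ran from -0.23 to 0.15 (quartiles), next to -0.19 to 0.24. The values were above 0 for 17 carriers (44.7%), next to 52.7% of all genes, and below 0 for 21 (55.3%), next to 47.3%. The lowest was -0.59 (Slc25a40) and the highest 0.60 (Slc25a23, 95% confidence interval -0.42 to 1.62), whereas all genes spanned -4.27 to 3.37. The 95% confidence interval of the fold change, not adjusted for the number of genes, stayed within 2-fold in both directions for 31 of 38 carriers (81.6%), next to 71.1% of all genes, and within 1.5-fold for 14 (36.8%), next to 32.1%. A change beyond 2-fold was thus outside the interval for most carriers, while a smaller one was often inside it. Groups did not overlap for 7 carriers, which is 18.4%, next to 19.2% of all genes. Of these, 6 were lower (15.8%, next to 8.75% of all genes) and 1 was higher (2.63%, next to 10.4%).

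**Figure D2:**
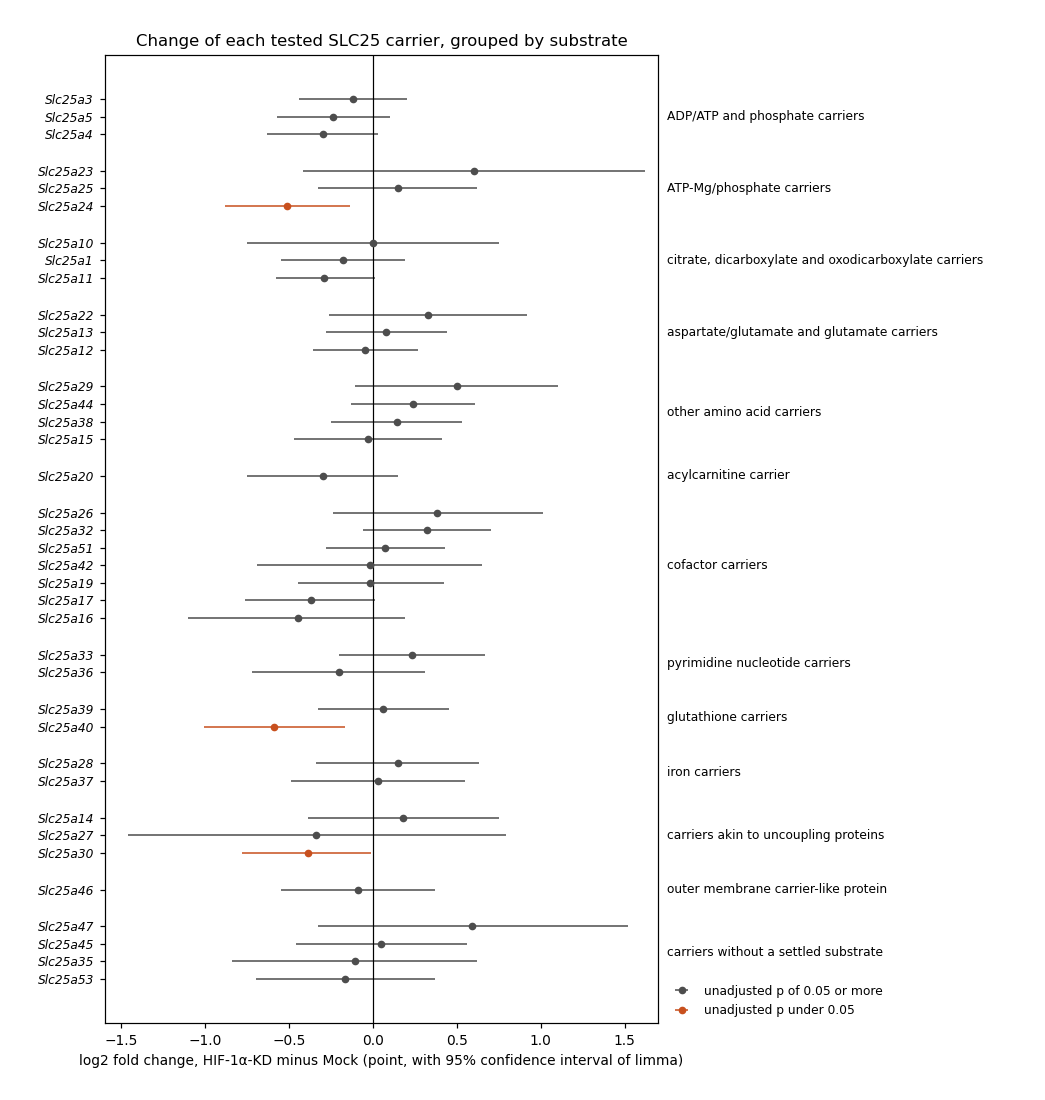
Log2 fold change of HIF-1α-KD against Mock (horizontal axis) with the 95% confidence interval of limma for the 38 tested carriers, grouped by what they carry. The 3 carriers in orange, Slc25a24, Slc25a40 and Slc25a30, have an unadjusted p under 0.05, and the other intervals include 0.

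Across the 38 carriers, the fold change was lower where the level was higher (Spearman's rho -0.41 between mean FPKM and log2 fold change, across genes measured in the same libraries), next to -0.07 across all tested genes. Of the 8 carriers with the highest FPKM, 7 had a log2 fold change below 0, with a median of -0.26, whereas 14 of the other 30 were below 0, with a median of 0.04. These are descriptions, since genes are not independent replicates. The exception among the 8 was Slc25a39.

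Slc25a40 and Slc25a39 are related carriers, of which SLC25A39 is known to bring glutathione into mitochondria. Slc25a40 (ENSMUSG00000054099, chromosome 5, 8422850 to 8454797, GRCm38) reached 579.8, 483.3 and 479.6 normalized counts in Mock, against 333.8, 301.0 and 391.6 after the knock-down. Every HIF-1α-KD library lay below every Mock library. Means were 514 ± 56.8 (SD, n = 3) and 342 ± 45.9 (SD, n = 3), which gave -0.59 on the log2 scale (SE 0.19; limma adjusted p = 0.29, limma unadjusted p = 0.0117). Slc25a39 had 5941, 7406 and 8718 normalized counts in Mock, against 8499, 7198 and 7098 after the knock-down, with overlap and a log2 fold change of 0.06 (95% confidence interval -0.33 to 0.45). Slc25a39 made up 96.1% to 97.8% of the FPKM of the pair in Mock and 97.7% to 98.4% in HIF-1α-KD libraries, so Slc25a40 is the minor member in both groups.

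ATP-Mg/phosphate carriers, which are regulated by calcium, adjust the adenine nucleotides of the matrix. Slc25a24 (ENSMUSG00000040322, chromosome 3, 109123149 to 109168457) reached 5468, 4237 and 3797 normalized counts in Mock, against 3145, 3231 and 3000 after the knock-down, without overlap. Means were 4501 ± 866 (SD, n = 3) and 3125 ± 117 (SD, n = 3), which gave -0.51 on the log2 scale (SE 0.16; limma adjusted p = 0.291, limma unadjusted p = 0.0119). Mock replicate 1 was the highest library by a wide margin, and without it the log2 fold change was -0.36. Slc25a25 had 331.2, 538.8 and 434.9 normalized counts in Mock, against 480.2, 489.2 and 448.2 after the knock-down, with the HIF-1α-KD values inside the range of Mock. Its log2 fold change was 0.15 (95% confidence interval -0.33 to 0.62). The share of Slc25a24 in the FPKM of the pair was 93.8%, 87.9% and 88.9% in Mock, against 85.8%, 85.9% and 86.1% after the knock-down, without overlap between the groups. Slc25a23 was low, between 26.57 and 94.1 normalized counts, and its highest value was that of HIF-1α-KD replicate 1. Its log2 fold change ran from 0.18 to 0.93 when single libraries were left out.

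Slc25a30, akin to the uncoupling proteins, lies on chromosome 14 (ENSMUSG00000022003, 75760117 to 75787037). It reached 1299, 1051 and 1353 normalized counts in Mock, against 1068, 904.1 and 840.9 after the knock-down, and the groups overlapped, because Mock replicate 2 lay just below HIF-1α-KD replicate 1. Means were 1234 ± 161 (SD, n = 3) and 938 ± 117 (SD, n = 3), which gave -0.39 on the log2 scale (SE 0.17; limma adjusted p = 0.386, limma unadjusted p = 0.0447). When single libraries were left out, the unadjusted p of limma was under 0.05 in 6 of 6 fits for Slc25a24, in 5 for Slc25a40 and in 2 for Slc25a30. The other 2 carriers of this kind, Slc25a14 and Slc25a27, had log2 fold changes of 0.18 and -0.34 and overlapping groups.

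**Figure D3:**
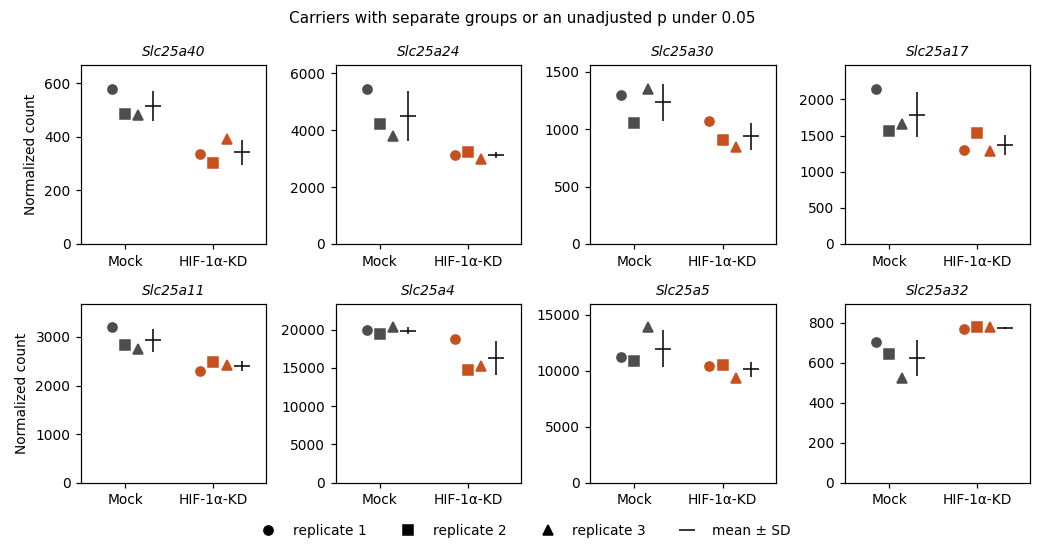
Normalized counts (vertical axes from 0) of 8 carriers in each of 3 Mock (grey) and 3 HIF-1α-KD (orange) libraries, with the mean and SD of each group in black. The groups are separate for all but Slc25a30, and Slc25a32 is the carrier whose HIF-1α-KD libraries lie above Mock.

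The carriers that serve ATP synthase were the most abundant, and all 3 tested members had log2 fold changes below 0, none past an unadjusted p of 0.05. Slc25a4, which encodes the ADP/ATP carrier ANT1, had 19900, 19440 and 20310 normalized counts in Mock, against 18820, 14670 and 15310 after the knock-down (log2 fold change -0.30, 95% confidence interval -0.63 to 0.03). Slc25a5, which encodes ANT2, had 11200, 10860 and 13890 in Mock, against 10420, 10560 and 9382 after the knock-down (log2 fold change -0.24, 95% confidence interval -0.57 to 0.10). In both genes the groups were separate by a small gap, between 18820 and 19440 normalized counts for Slc25a4 and between 10560 and 10860 for Slc25a5. Slc25a3 had 20510, 17780 and 21820 normalized counts in Mock, against 17280, 19120 and 18800 after the knock-down, with overlap (log2 fold change -0.12, 95% confidence interval -0.44 to 0.20). ANT1 and ANT2 had similar levels, with Slc25a4 at 47.7% to 52.8% of the FPKM of the pair in Mock and at 46.4% to 53.0% in HIF-1α-KD libraries.

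Carriers of citrate and dicarboxylates link the citric acid cycle to the cytosol, for lipid synthesis and the malate-aspartate shuttle. Slc25a11, the oxoglutarate carrier of that shuttle, had 3200, 2836 and 2753 normalized counts in Mock, against 2291, 2487 and 2422 after the knock-down, without overlap. Its log2 fold change was -0.29 (95% confidence interval -0.58 to 0.01, limma adjusted p = 0.409), and in edgeR its unadjusted p was 0.0472. Part of its exons, 189 bases, overlaps Rnf167 on the opposite strand. The paper names a stranded library kit, while the strand setting of the counting is not given. The citrate carrier Slc25a1 had 1502, 1701 and 2012 normalized counts in Mock, against 1535, 1697 and 1360 after the knock-down, with overlap (log2 fold change -0.18, 95% confidence interval -0.55 to 0.19). The dicarboxylate carrier Slc25a10 ranged from 409.9 to 774.2 in Mock and from 398.5 to 892.0 in HIF-1α-KD libraries, which makes its interval wide, -0.75 to 0.75 on the log2 scale.

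Aspartate/glutamate carriers are the other arm of the malate-aspartate shuttle. Slc25a12 had 1390, 1378 and 1311 normalized counts in Mock, against 1264, 1453 and 1245 after the knock-down, and Slc25a13 had 1108, 1218 and 1134 in Mock, against 1132, 1451 and 1104 after the knock-down. Both overlapped, with log2 fold changes of -0.05 (95% confidence interval -0.36 to 0.27) and 0.08 (95% confidence interval -0.28 to 0.44). Slc25a12 held 62.1% to 64.5% of the FPKM of the pair in Mock and 59.2% to 62.0% in HIF-1α-KD libraries. The groups nearly met, since the highest HIF-1α-KD share lay just below the lowest of Mock. The glutamate carrier Slc25a22 had 343.5, 659.4 and 643.8 normalized counts in Mock, against 619.3, 637.9 and 728.9 after the knock-down, and Mock replicate 1 alone was low (log2 fold change 0.33, and 0.02 without Mock replicate 1). Its relative Slc25a18 was at 0 reads. Of the other amino acid carriers tested, Slc25a29, Slc25a38 and Slc25a44 had log2 fold changes of 0.50, 0.14 and 0.24 and the ornithine carrier Slc25a15 of -0.03, with overlap in each.

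Among carriers of cofactors, 3 of 7 were above 0 and 4 below. Slc25a17, a carrier of coenzyme A and related nucleotides in the peroxisome, had 2151, 1568 and 1655 normalized counts in Mock, against 1297, 1536 and 1290 after the knock-down. The groups were separate, between 1536 and 1568, and the log2 fold change was -0.37 (95% confidence interval -0.76 to 0.01, limma adjusted p = 0.402). Slc25a32, linked to folate and FAD, had 705.4, 645.0 and 526.7 normalized counts in Mock, against 769.7, 778.2 and 778.5 after the knock-down, and is described because it was seen to be the only tested carrier whose HIF-1α-KD libraries all lay above Mock. Its log2 fold change was 0.32 (95% confidence interval -0.06 to 0.70, limma adjusted p = 0.467). The NAD carrier Slc25a51 had a log2 fold change of 0.07 (95% confidence interval -0.28 to 0.43).

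Iron enters mitochondria for heme and iron-sulfur clusters through mitoferrins. Slc25a37, mitoferrin 1, had 726.3, 672.8 and 966.4 normalized counts in Mock, against 596.0, 874.1 and 964.5 after the knock-down, and Slc25a28, mitoferrin 2, had 368.1, 473.7 and 478.3 in Mock, against 393.3, 595.9 and 482.8 after the knock-down. Both overlapped, with log2 fold changes of 0.03 (95% confidence interval -0.49 to 0.55) and 0.15 (95% confidence interval -0.34 to 0.63). Groups also overlapped for both pyrimidine nucleotide carriers. Slc25a33 had 834.7, 609.6 and 893.9 normalized counts in Mock, against 887.2, 814.2 and 1020 after the knock-down, and Slc25a36 had 2220, 1556 and 1353 in Mock, against 1165, 1771 and 1485 after the knock-down. Slc25a33 held 27.8% to 40.3% of the FPKM of that pair in Mock and 31.9% to 43.7% in HIF-1α-KD libraries.

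**Figure D4:**
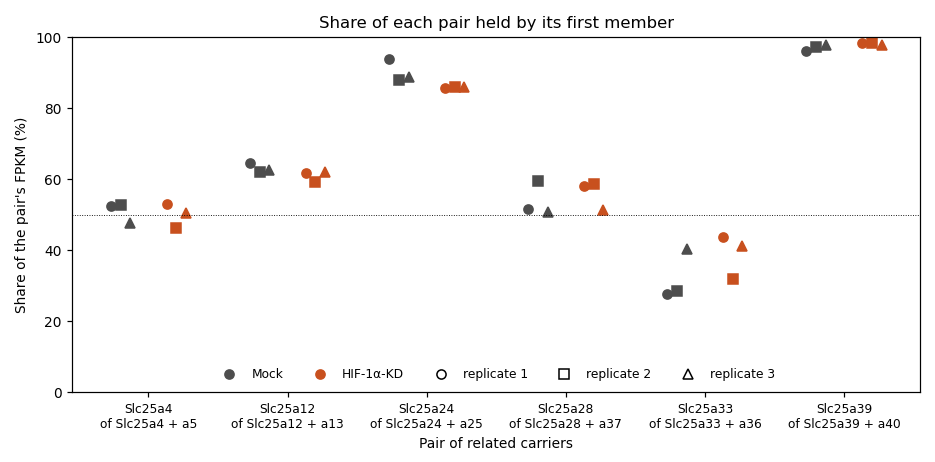
Share of the summed FPKM of 6 pairs of related carriers held by the member named first (vertical axis, percent), for each of 3 Mock (grey) and 3 HIF-1α-KD (orange) libraries. Slc25a4 and Slc25a5 are near 50%, and for Slc25a24 the 3 HIF-1α-KD libraries, at 85.8% to 86.1%, lie below the 3 Mock libraries.

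The 19 tested carriers not given by library above had log2 fold changes from -0.45 (Slc25a16) to 0.60 (Slc25a23), 9 above 0 and 10 below, with unadjusted p from 0.0952 to 0.995 in limma. Groups overlapped in all 19. They include the acylcarnitine carrier Slc25a20, needed for fatty acid oxidation, with a log2 fold change of -0.30 (95% confidence interval -0.75 to 0.15), and the outer membrane protein Slc25a46, with -0.09 (95% confidence interval -0.55 to 0.37). Slc25a35 shares 1151 exon bases with Rangrf on the opposite strand, so its count is uncertain. Other carriers named above also share exon bases with genes on the opposite strand. Among them are Slc25a37 (473 bases), Slc25a46 (383 bases), Slc25a25 (379 bases) and Slc25a33 (281 bases).

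Other genes of mitochondrial transport were read beside the carriers. None of the 12 tested genes of the machinery that imports carrier proteins had an unadjusted p under 0.05 in limma (0 of 12, median log2 fold change 0.08), next to 12.7% of all genes in either direction, and none passed adjustment. Of 14 tested genes of other transport across mitochondrial membranes, 3 were lower at an unadjusted p under 0.05 and 0 were higher, next to 5.69% and 7.04% of all genes, with a median of -0.23, next to 0.02 over all genes. Vdac1, the main channel of the outer membrane, had 19250, 16180 and 15910 normalized counts in Mock, against 13500, 12020 and 11360 after the knock-down (log2 fold change -0.48, limma adjusted p = 0.276). Sfxn3, a sideroflexin, had a log2 fold change of -0.43 (limma adjusted p = 0.342), and Mpc1, a subunit of the mitochondrial pyruvate carrier, of -0.39 (limma adjusted p = 0.387), while its partner Mpc2 had -0.04. Groups were separate for Vdac1, Sfxn3 and Mpc1. Of family members under other symbols, Mtch2 had a log2 fold change of -0.30, Mtch1 of 0.01 and Ucp2 of 0.05, none past an unadjusted p of 0.05.

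Markers of cell types varied between libraries, and those of fibroblasts were the highest in sum. Markers of intestinal epithelium were low and uneven. Epcam was at 2.31 to 37.45 and Cdx2 at 0 to 2.416 normalized counts, while Cdh1 was present in every library at 26.38 to 94.22. In Mock replicate 3, Krt8 reached 190.9, Krt19 120.8 and Krt20 71.27 normalized counts. The sum over 10 such markers was 1.5 to 15.1 FPKM in Mock and 1.79 to 3.27 FPKM in HIF-1α-KD libraries, the highest in Mock replicate 3. All 5 tested erythroid genes, mainly globins, had lower HIF-1α-KD means with an unadjusted p under 0.05 in limma, and none passed adjustment. By that rule 5.69% of all genes were lower. Their groups were not all separate, since Hbb-bs had 335.0 normalized counts in HIF-1α-KD replicate 3 and 316.8 in Mock replicate 2. Sums over 7 erythroid genes were 43.4 to 95.7 FPKM in Mock and 0.181 to 39.9 FPKM in HIF-1α-KD libraries. In the other lists, Cdh5 (endothelial) and Fabp4 (adipocyte) were also lower by that rule. Slc4a1, the anion exchanger of red cells, was at most at 0.957 normalized counts. Leukocyte markers summed to 101 to 111 FPKM in Mock and to 67.8, 80.7 and 372 FPKM in HIF-1α-KD replicates 1 to 3, with Ptprc, which encodes CD45, at 222.9 normalized counts in replicate 3. Without that library the log2 fold change was -0.48 for Slc25a24, -0.69 for Slc25a40 and -0.32 for Slc25a30. Sums of endothelial markers were 5.44 to 6.71 FPKM in Mock and 3.98 to 5.57 FPKM in HIF-1α-KD libraries, of muscle markers 3.22 to 6.57 and 4.82 to 8.38 FPKM, of adipocyte markers 5.39 to 12.3 and 0.276 to 3.92 FPKM, and of fibroblast markers, which include Dcn, 517 to 954 and 375 to 665 FPKM. The adipocyte sum is almost wholly Fabp4, since Cidec, Lep and Plin1 had 0 reads in all libraries and Adipoq at most 2.462 normalized counts. The part of other cells in the values of the carriers was not tested. Marker RNA of other cells and of the tumor cells themselves cannot be told apart in bulk libraries. Nor can fewer cells of a type and less RNA per cell.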

How the data were processed

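RNA of sorted MC-38 tumor cells was measured in 3 Mock and 3 HIF-1α-KD libraries, grouped by their titles. Per the methods, trimmed reads were aligned (STAR), assigned to genes (featureCounts) and tested (DESeq2) by the authors. The submitters' processing notes name GRCm38 and edgeR, whereas the methods name GRCh38. Gene identifiers are those of mouse. The normalized counts deposited by the authors (signal) equal reads over a factor for the library, with at most 4 significant digits. The deposited FPKM values rest on a gene length that differs from the exon length of the annotation, and the deposited GC content is a fraction. The deposited log2 ratio, p-value and false discovery rate of the authors were not used.

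Reads were recovered by removing the factor, and 100% of values up to 300 reads were whole within 0.1. The main test was limma 3.58.1 (eBayes with trend) on log2 of normalized count plus 1, two-sided, after filterByExpr of edgeR 4.0.16 (minimum count of 10). Alternatives were edgeR and DESeq2 1.42.0 on recovered reads, TMM and library size scaling, no filter, pseudocounts of 0.1 and 10, a replicate block, loess correction for length and GC content (span 0.5) and leaving out each library. The fits were tested on simulated data.

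The members, lists and tests were chosen with earlier results of these data known. Values of every library are given for carriers with an unadjusted p under 0.05, for the 8 with the highest FPKM, for those with separate groups and a fold of at least 1.5, and for pairs of related carriers. A single marker of the erythroid list is not reported here by name. Positions come from GENCODE M21 on GRCm38. Chi-square per degree of freedom between libraries of a group was 30.8 to 98.8, beyond the sampling noise of reads. Tables were made with R 4.3.3, Python 3.11.15, pandas 2.3.3 and numpy 2.4.6.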

Additional observations from a re-analysis of the deposited data

How the results depend on the processing

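No carrier passed an adjusted p under 0.05 in limma, edgeR, DESeq2 or any other of the 15 alternatives, the lowest adjusted p being 0.114 for Slc25a24 in DESeq2. The number of carriers lower at an unadjusted p under 0.05 was 3 in limma, 5 with edgeR and with TMM scaling, which added Slc25a11 and Slc25a17, 4 with DESeq2, and from 1 to 4 when single libraries were left out, where 1, Slc25a24, was found without HIF-1α-KD replicate 2. Over all genes, 6.28% were lower with TMM scaling and 4.25% to 5.87% when single libraries were left out. The lower carriers were 13.2% and 2.63% to 10.5% of those tested in these fits. Slc25a24 was among the lower carriers in 15 of 15 alternatives, Slc25a40 in 14 and Slc25a30 in 8. The number of higher carriers was 2 (Slc25a29 and Slc25a32) with the correction for length and GC content, where 6.98% of all genes were higher. It was 0 to 1 when single libraries were left out. The 1 was Slc25a32 without Mock replicate 1, where 3.94% of all genes were higher. The median log2 fold change of the carriers was 0.04 with scaling by library size, where that of all genes was 0.08, and -0.05 to 0.04 when single libraries were left out. Slc25a12 turned to 0.01 with scaling by library size and Slc25a37 to -0.08 with the length and GC correction. When single libraries were left out, the log2 fold change crossed or reached 0 for Slc25a13 (-0.04 to 0.15), Slc25a25 (-0.04 to 0.31), Slc25a28 (0.00 to 0.30), Slc25a36 (-0.36 to 0.00), Slc25a37 (-0.11 to 0.24) and Slc25a39 (-0.09 to 0.19).

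With the replicate number as a block, 2 carriers (Slc25a24 and Slc25a40, 5.26%) were lower at an unadjusted p under 0.05 and 0 higher. Of all genes, 5.05% were lower and 5.97% higher by that rule. Calls over all genes at an adjusted p under 0.05 went from 1 higher and 46 lower to 0. The replicate numbers share only a label, since deviations of same-numbered libraries correlated at -0.14, -0.12 and 0.02. Hif1a ranged from -2.30 to -1.21 when single libraries were left out, on the same side of the threshold in all alternatives. Without the filter on low counts, 43 carriers were tested in limma, and none of the 5 added ones had an unadjusted p under 0.05. Of all genes in that fit, 4.88% were lower and 6.09% higher by this rule.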
